A study of Cavia porcellus with 18 samples.

Results

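Pol II PS5 peaks that lay away from start sites and inside H3K4me1 were examined in the hippocampus of guinea pigs (Cavia porcellus). The 3 animals were males of 12 weeks with the wild type genotype. Pol II PS5 is RNA polymerase II phosphorylated on serine 5 of its tail. The peaks were selected on the measured peak positions: a peak of the authors' HOMER list was taken when it lay farther than 5000 bases from every start site of the deposited CG site table and shared at least 1 base with an H3K4me1 peak. Of 67423 Pol II PS5 peaks, 34448 (51.1%) met this rule and are called distal Pol II peaks below. Another 6529 peaks (9.68%) lay in H3K4me1 within 5000 bases of a start site (start-site peaks), 25491 (37.8%) were distal and outside H3K4me1, and 955 (1.42%) were near a start site and outside H3K4me1. The animals formed 1 untreated group, with 1 library per animal for H3K4me1 ChIP-seq, H3K4me1 ChIP-bisulfite sequencing and Pol II PS5 ChIP-seq, and with 6 bisulfite libraries of reduced representation bisulfite sequencing (RRBS). The deposited values pool the animals. Every error below is therefore a spread over regions, and every p-value describes regions that share animals, reads and scaffolds.

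H3K4me1, histone H3 with a single methyl group on lysine 4, marks enhancers and the sides of promoters. Polymerase phosphorylated on serine 5 is the form found where transcription starts and in the first bases of a gene. It is also found at active enhancers, many of which are transcribed into short, unstable RNAs, so that polymerase at H3K4me1 away from start sites is used as a sign of a transcribed enhancer. Cytosine methylation at CG sites is low at most CG-rich start sites, high over most of a mammalian genome and often intermediate at enhancers. RRBS reads methylation next to restriction sites in all chromatin, while ChIP-bisulfite reads it on DNA precipitated with H3K4me1. RNA, H3K4me3 and H3K27ac were not analysed here, so the name enhancer was not checked for any of these peaks.

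The distance rule was met in different ways. On the 302 scaffolds that carry a listed start site lay 20422 distal Pol II peaks (59.3%), at a median distance of 48713.5 bases from the nearest start site (quartiles 18608 and 134406). The other 14026 (40.7%) lay on scaffolds with no listed start site, so that no distance exists for them. Scaffold length was taken as the end of the last deposited Pol II peak, H3K4me1 peak or RRBS position, since no genome was used. By this measure the 2800 scaffolds without a listed start site held 5.84% of the summed span, with a median length of 10.5 kb. They carried 88.3 distal Pol II peaks per Mb, against 7.98 per Mb on scaffolds with a start site. H3K4me1 covered 30.1% of the span there and 32.1% on scaffolds with a start site. Of the distal Pol II peaks without a listed start site, 12.0% lay within 500 bases of either scaffold end by this measure. The share was 0.377% for those with a listed start site. A peak that was the last deposited feature of its scaffold lay at the end by construction. Whether a start site is missing from the list on scaffolds without one was not tested. A further limit of the list is that it holds only start sites of transcripts with measured CG sites. For 7656 distal Pol II peaks the H3K4me1 peak is also in the authors' table of averages, with its own distance from start sites. That H3K4me1 peak was farther than 5000 bases from both start sites given there in 97.8% of cases. Only 103 of the 7656 had no listed start site, so peaks of that kind were hardly checked.

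The limit itself separated like peaks. The 3 distal Pol II peaks closest to it lay 5002, 5002 and 5003 bases from a start site and had widths of 294, 199 and 619 bases. The 3 start-site peaks closest to it lay 4996, 4994 and 4994 bases away and had widths of 179, 192 and 427 bases.

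Distal Pol II peaks were short. Their median width was 265 bases (quartiles 202 and 403), against 324 bases (219 and 510) for start-site peaks and 243 bases (197 and 337) for distal peaks outside H3K4me1. Distal Pol II peaks exceeded the median width of the whole list in 51.7% of cases (exact 95% interval 51.2 to 52.2), against 63.2% of start-site peaks (62.0 to 64.4). The odds ratio was 0.623 (two-sided Fisher's exact test, adjusted p = 4.89e-66 over 10 tests), a direction that turned in part of the list, as described with the scores. The share was 44.1% for distal peaks outside H3K4me1, a difference to which the rule contributes, since a wide peak meets an H3K4me1 peak more easily. The odds ratio was 1.36 over the whole list, 6.19 among peaks whose score was written with at most 2 decimals (43.0% of distal Pol II peaks and 10.8% of those outside were wider than 322 bases, the median of these scores' peaks) and 1.29 among scores with more decimals, at their own median of 255 bases. Without a listed start site the distal Pol II peaks were wider, with a median of 300 bases, against 245 bases for those with one. On scaffolds with a listed start site alone, distal peaks outside H3K4me1 had a median of 242 bases. The odds ratio against them fell to 1.06 there, so the difference was small on those scaffolds.

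The Pol II scores are the authors' own and lie on 2 scales in 1 column. Values written with at most 2 decimals made up 11.9% of the list and had a median of 6.93, and values with more decimals had a median of 3.25. Only 11.2% of the distal Pol II peaks carried a score of the first kind, against 47.0% of start-site peaks and 3.65% of distal peaks outside H3K4me1. On scaffolds with a listed start site, where all start-site peaks lie, 15.5% of distal Pol II peaks and 4.02% of distal peaks outside H3K4me1 did. Over both kinds together, 46.4% of the distal Pol II peaks scored above the list's median, against 63.1% of start-site peaks (odds ratio 0.507 and adjusted p = 7.99e-135 in Fisher's exact test). Within each kind the direction was the opposite. Among scores of at most 2 decimals, 52.5% of distal Pol II peaks and 41.9% of start-site peaks exceeded the median of that kind (odds ratio 1.53). Among scores with more decimals, the shares were 46.4% of distal Pol II peaks and 40.8% of start-site peaks (odds ratio 1.25). The width difference against start-site peaks also turned among scores with more decimals, with an odds ratio of 1.13, while it was 0.305 among scores of at most 2 decimals. Distal peaks outside H3K4me1 exceeded the list's median in 51.6% of cases, so that distal Pol II peaks scored lower than these with both kinds together (odds ratio 0.812, adjusted p = 5.16e-36 in the exact test). The odds ratios within each kind were 0.598 and 0.679.

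**Figure D1:**
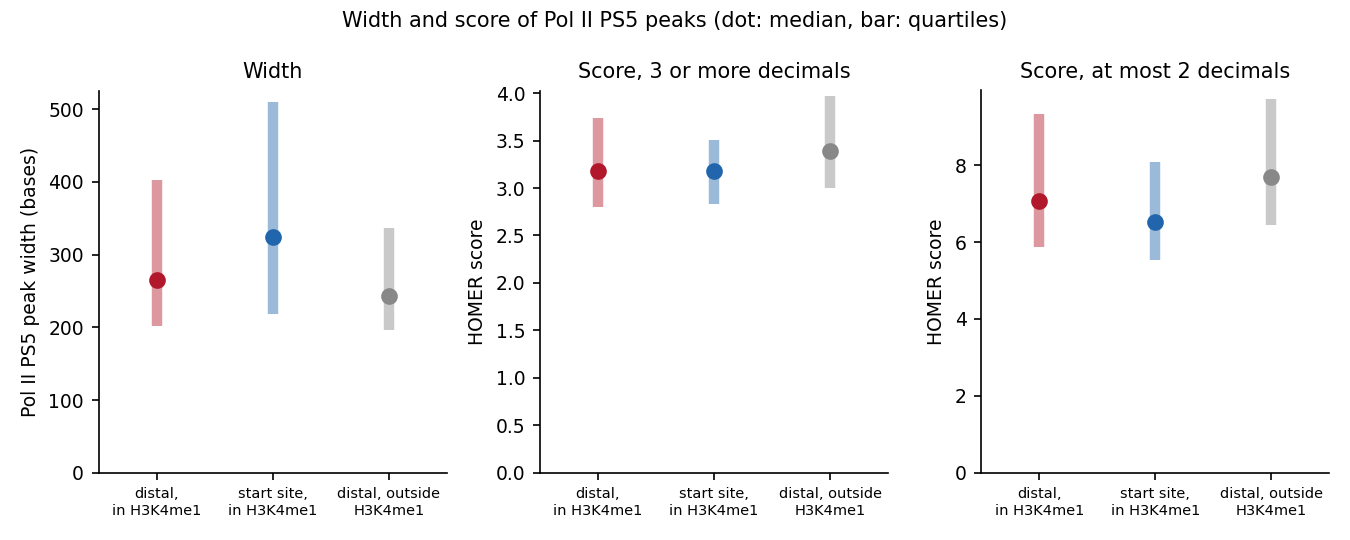
Width in bases (left) and HOMER score of Pol II PS5 peaks, with scores of 3 or more decimals in the middle and of at most 2 decimals on the right. Dots are medians and bars run between quartiles, for 34448 distal peaks in H3K4me1, 6529 start-site peaks in H3K4me1 and 25491 distal peaks outside H3K4me1. Within each kind of score the 3 groups overlap widely, and over both kinds together start-site peaks have the highest median width, 324 bases.

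The 6 highest scores were all written with at most 2 decimals. The highest, 1149.38, belonged to a peak at scaffold_1:68170506-68170697, 390993 bases from the nearest start site and in an H3K4me1 peak of 589 bases. It was 192 bases wide, and its 8 covered C positions had a median of 4690.5 RRBS reads, against a median of 17 for all positions on scaffolds with a start site. A score of 563 belonged to scaffold_1289:4-1071, at the very end of a scaffold without a listed start site, with a median of 16 reads. A score of 526.31 belonged to scaffold_9:10234820-10235011, with a median of 222.5 reads, and a score of 413.62 to scaffold_13:29785337-29785535, with a median of 46888 reads. The remaining pair scored 377.27 at scaffold_90:5-263, again at a scaffold end, and 353.83 at scaffold_36:5172382-5172573. Of the 28 distal Pol II peaks that scored 100 or more, 14 had no listed start site, 7 were exactly 192 bases wide and 21 had RRBS coverage, with a median of 241 reads per position.

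Distal Pol II peaks fell in 26428 H3K4me1 peaks (hosts), of which 81.3% held 1 of them, 11.9% held 2 and 1.34% held 5 or more. The hosts had a median width of 3135 bases, against 5568 bases for the hosts of start-site peaks and 1580.5 bases for 270526 distal H3K4me1 peaks without Pol II. The rule contributes to this difference, since a wide H3K4me1 peak is met more easily. H3K4me1 scores also lie on 2 scales, and 49.0% of the hosts carried a score of the high scale (42 or more), against 95.3% of the hosts of start-site peaks and 42.1% of distal H3K4me1 peaks without Pol II. The hosts' share was 61.7% on scaffolds with a listed start site, where all hosts of start-site peaks lie, and 20.3% on scaffolds without. On that scale the hosts had a median score of 60, hosts of start-site peaks 65.5 and peaks without Pol II 57.0. The share of high-scale hosts was smaller farther from the start site, with no test: it was 83.4% for distal Pol II peaks at 5000 to 10000 bases, 68.7% at 20000 to 50000 bases and 41.1% beyond 100000 bases. The 4 hosts with the most Pol II peaks held 14, 11, 10 and 9, and all of them were on scaffolds without a listed start site. The first was scaffold_704:221-20163, with Pol II peaks of 177 to 444 bases.

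The midpoints were spread over the host. In 34310 distal Pol II peaks with a single host, 47.4% of the midpoints lay in the central 50% of the host and 24.7% in its outermost 10% at either end or beyond it. The median distance from the midpoint to the host's edge was 717.5 bases (quartiles 218 and 1578.75). The whole Pol II peak lay inside the host in 79.7% of cases, and it took up a median of 7.61% of the host's width.

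Methylation was known for a small part of the distal Pol II peaks. RRBS covered at least 1 C position inside 24.8% of them (exact 95% interval 24.3 to 25.2), against 47.6% of start-site peaks and 12.8% of distal peaks outside H3K4me1. On scaffolds with a listed start site, where all start-site peaks lie, it covered 29.3% of distal Pol II peaks and 13.7% of distal peaks outside H3K4me1. Levels in both assays were deposited for 2116 CG sites within 250 bases of the midpoint of 1071 distal Pol II peaks, 5.24% of those with a listed start site and none of those without. The table of sites lists a site with a transcript only up to 10001 bases upstream of that transcript's start site. More distant upstream peaks have levels only where their sites are listed with another transcript. A site is a C position of either strand, so that neighbours 1 base apart belong to the same CG. The peaks with levels were not an even sample of the distal Pol II peaks. Of the 1071, 365 lay 5000 to 10000 bases from a start site and 1020 had a host on the high scale. Among all distal Pol II peaks with a listed start site, 11.8% lay at that distance and 61.3% had such a host. A single site was present at 603 of the 1071 peaks, and 227 had 3 or more. The RRBS levels rested on a median of 18 reads per site (quartiles 13 and 29), and the ChIP-bisulfite depth per site was unknown.

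Around the midpoint the RRBS level averaged 49.2% ± 36.9 and the ChIP-bisulfite level 40.9% ± 42.2 (SD over 1071 peaks). These means stand for few single peaks, because the levels gathered at both ends of the scale. In RRBS, 348 peaks (32.5%) were at 20% or less, 318 (29.7%) were at 80% or more and 405 (37.8%) lay between. In ChIP-bisulfite, 48.7% were at 20% or less and 30.6% at 80% or more. The upper end was smaller among the 227 peaks with 3 or more sites, where 17.6% were at 80% or more in RRBS and 13.7% in ChIP-bisulfite, and 47.1% and 55.1% were at 20% or less. Both assays put 302 peaks in the low class and 204 in the high class. Opposite classes were rare, with 50 peaks high in RRBS and low in ChIP-bisulfite and 12 peaks low in RRBS and high in ChIP-bisulfite. Among the 227 peaks with 3 or more sites, the SD between sites of a peak had a median of 12.0 points in RRBS, against an SD of 34.6 points between peaks.

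**Figure D2:**
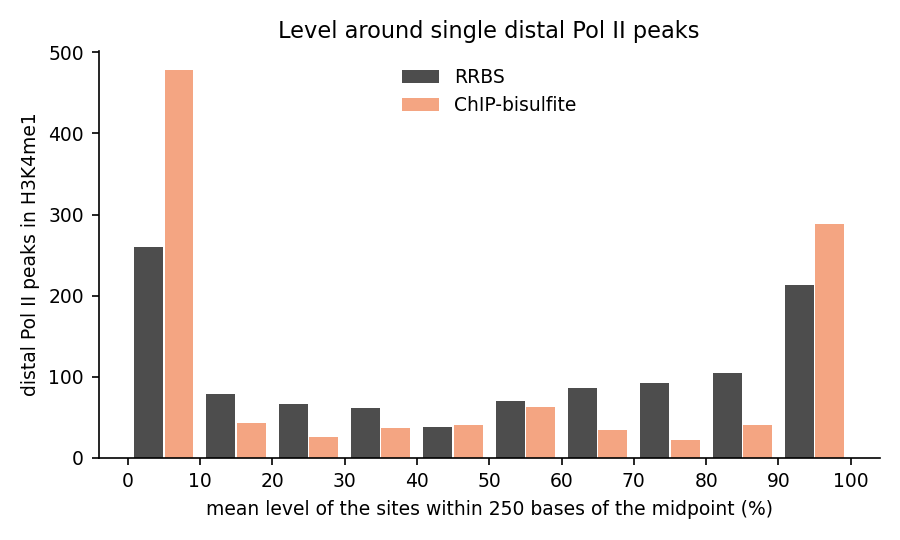
Number of distal Pol II peaks in H3K4me1 (y axis) by the mean level of their CG sites within 250 bases of the midpoint (x axis, percent, steps of 10), for RRBS and ChIP-bisulfite in the same 1071 peaks. Both assays are highest at the ends, with 260 peaks under 10% in RRBS and 478 in ChIP-bisulfite.

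Single peaks show both ends. At scaffold_56:472857-473112, a Pol II peak 9788 bases upstream of the start site of ENSCPOG00000002940, all 8 sites from 76 bases before to 125 bases after the midpoint were at 0% in both assays, on 12 to 26 RRBS reads. In the same H3K4me1 peak, 8 sites 1000 bases or more away averaged 84.2% in RRBS and 86.5% in ChIP-bisulfite. The near sites were thus at the bottom of the scale and the far sites near its top. At scaffold_80:6313101-6313476, 6661 bases from a start site, all 8 sites were at 0% in both assays too, but the 8 far sites averaged only 10.2% in RRBS and 12.6% in ChIP-bisulfite. The other 3 peaks with the lowest levels, at scaffold_13:30722780-30723677, scaffold_52:10223624-10224508 and scaffold_226:254973-255840, were 868 to 898 bases wide and had 5 sites each at 0%. In all, 47 of the 227 peaks with 3 or more sites had every RRBS level at 0%.

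At the high end, the 5 peaks with the highest RRBS levels had 3 sites each at 100%. At scaffold_39:13926554-13926849 and scaffold_171:1150533-1150888 ChIP-bisulfite also gave 100% at all 3 sites. At scaffold_30:22622988-22623239 it gave 88%, 88% and 0%, the last of them 106 bases from the midpoint. These 5 peaks were 212 to 356 bases wide, narrower than 4 of the 5 peaks with the lowest levels.

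A few peaks differed between the assays. At scaffold_0:18021865-18022085, 36371 bases downstream of its nearest start site, 4 sites 105 to 121 bases from the midpoint had 15%, 31%, 0% and 18% in RRBS, on 11 to 13 reads each, and 100% in ChIP-bisulfite. The reverse was seen at scaffold_14:6664820-6665121, where 3 sites had 90%, 50% and 100% in RRBS and 0%, 0% and 8% in ChIP-bisulfite. Similar gaps stood at scaffold_9:6521171-6521446, with a mean of 81.7% in RRBS and 6% in ChIP-bisulfite, and at scaffold_63:8560201-8560509, with 63% in RRBS and 0% in ChIP-bisulfite. Of the 227 peaks with 3 or more sites, 14 were lower in ChIP-bisulfite by 40 points or more and 6 were higher by as much.

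Methylation was lower around the Pol II midpoint than beyond 1000 bases from it. Averaged over distal Pol II peaks, the RRBS level was 45.6% ± 2.21 within 50 bases (SE, 283 peaks), 48.8% ± 1.13 at 250 to 500 bases (995 peaks), 53.8% ± 0.881 at 500 to 1000 bases (1534 peaks) and 63.9% ± 0.714 at 1000 to 2000 bases (1818 peaks). ChIP-bisulfite followed with 39.8%, 40.1%, 46.5% and 54.7% over the same distances. Start-site peaks began lower, with 17.4% ± 1.78 in RRBS within 50 bases (249 peaks) and 55.9% ± 0.69 at 1000 to 2000 bases. Both sides of distal Pol II peaks were alike within their spread. Within 250 bases RRBS averaged 46.5% ± 37.3 on the side facing the nearest start site and 49.8% ± 37.1 on the side away from it (SD over peaks).

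**Figure D3:**
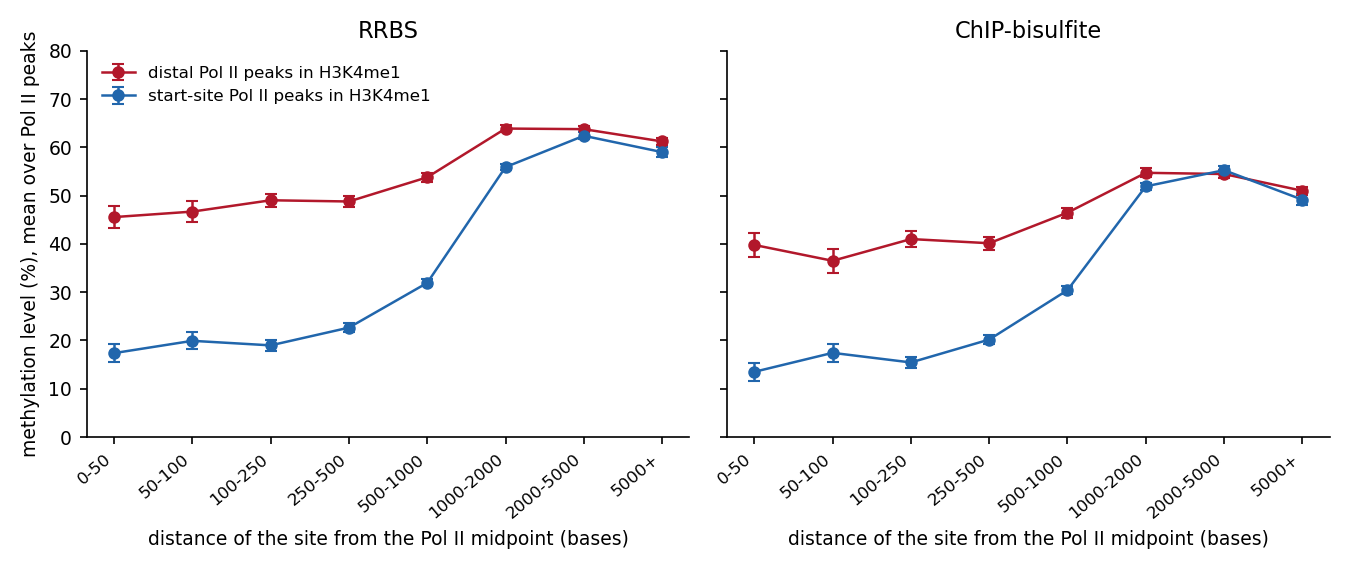
Mean methylation level (percent) by distance of the CG site from the Pol II PS5 midpoint, in RRBS (left) and ChIP-bisulfite (right), for distal and start-site Pol II peaks in H3K4me1. Points are means over Pol II peaks and bars are SE over peaks. Distal peaks stay between 45.6% and 53.8% in RRBS up to 1000 bases and reach 63.9% beyond, while start-site peaks begin at 17.4%.

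The difference was then measured within the same H3K4me1 peak. In 590 hosts with sites of both kinds, the RRBS level within 250 bases of the midpoint averaged 45.6% ± 36.4, against 64.1% ± 24.8 at sites 1000 bases or more from every Pol II midpoint (SD over hosts). The near minus far difference averaged -18.5 points (SE 1.79). Near sites were lower in 370 hosts, higher in 207 and equal in 13, and the lower share of 64.1% had an exact 95% interval of 60.1 to 68.0 (exact two-sided sign test over hosts, adjusted p = 3.39e-11 over 3 tests). In ChIP-bisulfite the near sites averaged 38.3% and the far sites 53.7%, a difference of -15.4 points (SE 2.12), with 354 hosts lower and 200 higher (adjusted p = 9.11e-11, exact sign test). The offset between the assays, ChIP-bisulfite minus RRBS, was -7.37 points near the midpoint and -10.4 points far from it. That change of 3.03 points (SE 1.64) did not pass the test (274 hosts lower, 298 higher, p = 0.336, exact sign test). The near sites lay in DNA with more covered C positions, 11.3 per 1000 bases against 4.51 over the whole hosts. Hosts were kept only if they had a near site, a selection that raises the first value. The methylation difference was present at each number of covered positions. In hosts whose Pol II peak had only 1 to 4 covered C positions within 250 bases, the RRBS difference was -14.4 points (330 hosts), with 5 to 9 it was -17.1 points (183 hosts) and with 10 or more it was -32.3 points (87 hosts). A host can reach closer to a start site than its Pol II peak does. Among hosts wholly farther than 5000 bases from a start site, the RRBS difference was -14.6 points (370 hosts). For Pol II peaks at 5000 to 10000 bases it was -27.4 points (197 hosts), and beyond 10000 bases it was -13.7 points (396 hosts).

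Hosts were far from uniform. In 200 of the 590 hosts the near sites were lower by 40 points or more in RRBS, and in 48 they were higher by as much. In ChIP-bisulfite these counts were 212 and 100. Low near and high far levels, with limits of 20% and 80%, met in 69 hosts, and the opposite in 8. With a far mean of 64.1% in RRBS, near sites had more room to be lower by 40 points than higher. Near levels also rested on a median of 1 site per host and far levels on 4, so near levels reach the ends of the scale more easily.

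The same contrast was made in H3K4me1 peaks without Pol II, from the centre of the peak. Neither the place in the peak nor the width was matched, since many Pol II midpoints lie off centre and the median width was 10069 bases in the 590 hosts and 5487 bases in the peaks without Pol II. In 1529 distal H3K4me1 peaks without Pol II, sites within 250 bases of the peak's centre averaged 63.3% in RRBS, against 67.2% for sites 1000 bases or more from it. Near sites were lower in 64.1% of the hosts of distal Pol II peaks and in 51.6% of the peaks without Pol II (odds ratio 1.68, two-sided Fisher's exact test, adjusted p = 3.61e-07 over 4 tests). Among peaks of at least 6080.25 bases, the lower quartile of the hosts' width, the shares were 64.2% of 438 hosts and 46.9% of 612 peaks without Pol II (odds ratio 2.03, adjusted p = 6.22e-08, exact test). In ChIP-bisulfite the shares over all widths were 63.9% of hosts and 54.2% of peaks without Pol II (adjusted p = 0.000106, Fisher's exact test), and the centres of the peaks without Pol II averaged 51.0%, against 57.0% at their far sites. ChIP-bisulfite gave shares of 65.8% in hosts and 47.7% in peaks without Pol II among those of at least 6080.25 bases (odds ratio 2.11, adjusted p = 5.29e-08, exact test). These 4 tests were chosen after the profile had been seen.

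The level near the midpoint differed with the place of the Pol II peak. It averaged 37.1% ± 36.3 in RRBS at 5000 to 10000 bases from the start site (365 peaks), 53.4% ± 37.0 at 10000 to 20000 bases (209 peaks), 55.9% ± 35.4 at 20000 to 50000 bases (250 peaks) and 56.6% ± 34.9 beyond (247 peaks). The first mean lay below the other 3, and each group's SD was 34.9 points or more. Sides were taken from the closest start site among the transcripts listed with the near sites, which need not be the peak's nearest start site. The 185 peaks with sites listed upstream averaged 29.8% ± 35.4 in RRBS and 25.6% ± 37.8 in ChIP-bisulfite. The 886 peaks with sites listed downstream averaged 53.2% ± 35.9 in RRBS and 44.1% ± 42.4 in ChIP-bisulfite. All peaks with sites listed upstream lie within about 10001 bases of that start site, so that side and distance are tied in these values. Peaks farther than that upstream of their nearest start site can count as downstream, through another transcript. By these listed sides, the difference within the host was -34.0 points upstream (92 hosts) and -15.5 points downstream (499 hosts) in RRBS.

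It also went with the size of the Pol II peak. Distal Pol II peaks of 500 bases or more averaged 19.5% ± 29.9 in RRBS (90 peaks), those of 300 to under 500 bases 41.9% ± 36.0 (211 peaks), those of 200 to under 300 bases 54.0% ± 36.4 (428 peaks) and those under 200 bases 55.5% ± 35.3 (342 peaks). Low levels, of 20% or less, were found in 72.2% of the widest peaks and in 24.3% of the narrowest. By score there was no steady order. Peaks with scores of at most 2 decimals averaged 36.4% ± 38.6 (223 peaks), and those with more decimals 52.5% ± 35.7 (848 peaks). Within scores of more decimals, the limits for each 25% were set over all distal Pol II peaks with such scores. Of those with levels, the lowest 25% of scores averaged 54.7% ± 35.8 (228 peaks). The highest 25% averaged 48.1% ± 35.3, in only 53 peaks. Among scores of at most 2 decimals the order was the opposite, with 35.1% in the lower part (154 peaks) and 39.4% in the upper part (69 peaks). Hosts on the low H3K4me1 scale gave 75.1% ± 24.7 (51 peaks), against 47.9% ± 36.9 on the high scale (1020 peaks). The number of covered C positions within 250 bases moved with these values: RRBS averaged 54.9% with 1 to 4 positions (586 peaks), 47.5% with 5 to 9 (322 peaks), 33.2% with 10 to 19 (137 peaks) and 24.5% with 20 or more (26 peaks). These are descriptions, with no test.

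**Figure D4:**
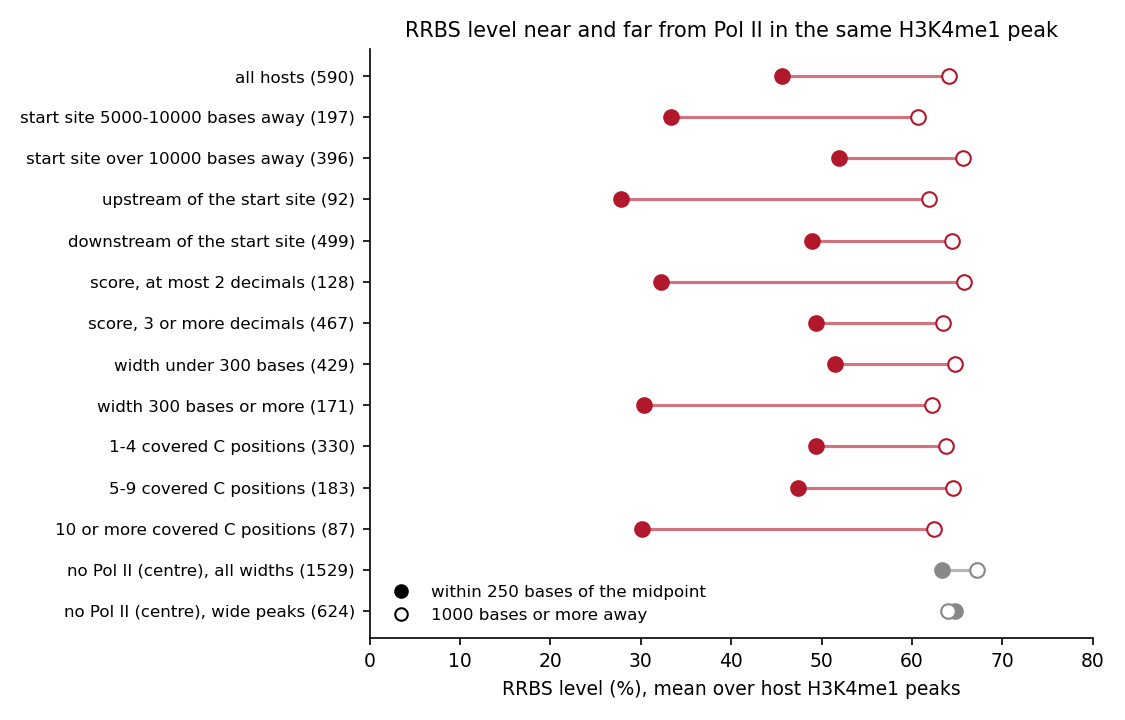
Mean RRBS level (x axis, percent) within 250 bases of the Pol II midpoint (filled) and 1000 bases or more away (open) in the same H3K4me1 peak, with the number of hosts in brackets. Red rows are hosts of distal Pol II peaks, all and by position, score, width and covered C positions, and grey rows are distal H3K4me1 peaks without Pol II, measured from their centre. Upstream and downstream refer to the closest start site listed with the near sites. Far levels lie between 60.7% and 65.8% in every red row, and near levels between 27.8% and 52.0%.

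Set beside start-site peaks, distal Pol II peaks were less often unmethylated. With the site nearest to the midpoint taken for each peak, 370 of 1071 distal Pol II peaks (34.5%, exact 95% interval 31.7 to 37.5) were at 20% or less in RRBS, against 736 of 1021 start-site peaks (72.1%, 69.2 to 74.8). The odds ratio was 0.204 (two-sided Fisher's exact test, adjusted p = 3.46e-67 over 10 tests). In ChIP-bisulfite the shares were 53.0% of distal Pol II peaks and 81.1% of start-site peaks (odds ratio 0.263, adjusted p = 7.45e-43, exact test). Start-site peaks had more covered C positions, and the difference was present at each number of them. With 1 to 4 positions, 27.3% of distal Pol II peaks and 53.3% of start-site peaks were low in RRBS, and with 10 to 19 positions 54.7% of distal Pol II peaks and 88.9% of start-site peaks were.

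Whole H3K4me1 peaks with a distal Pol II peak were also less methylated than those without Pol II. In the authors' table of averages, 5606 hosts farther than 5000 bases from a start site averaged 58.6% ± 24.4 in RRBS, against 66.0% ± 20.5 in 57755 distal H3K4me1 peaks without Pol II (SD over peaks). Below the common median of 69.83% lay 59.95% of the hosts and 49.0% of the peaks without Pol II (odds ratio 1.56 with adjusted p = 5.74e-55 in Fisher's exact test). In ChIP-bisulfite the averages were 47.2% ± 22.5 in hosts and 51.5% ± 23.7 in peaks without Pol II (odds ratio 1.40, adjusted p = 1.1e-32, exact test). With strata of C positions per 1000 bases and of width, the odds ratios were 1.54 in RRBS and 1.32 in ChIP-bisulfite (Cochran-Mantel-Haenszel estimates). The gap was larger in the 2 classes with the most C positions. In the 20% of peaks with the fewest, hosts had 66.9% and peaks without Pol II 69.4% in RRBS, a difference of -2.51 points. In the 20% with the most, hosts had 45.6% and peaks without Pol II 57.8%, a difference of -12.2 points. Over the 5 classes, from the fewest to the most C positions, the RRBS differences were -2.51, -2.20, -3.02, -7.65 and -12.2 points. Those in ChIP-bisulfite were -0.81, -1.15, -0.30, -4.34 and -5.71 points. The 5240 hosts with 1 distal Pol II peak averaged 59.2% ± 24.2 in RRBS, the 327 with 2 averaged 49.0% ± 25.8 and the 39 with 3 or more averaged 63.8% ± 23.7, so the level had no single order by their number.

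**Figure D5:**
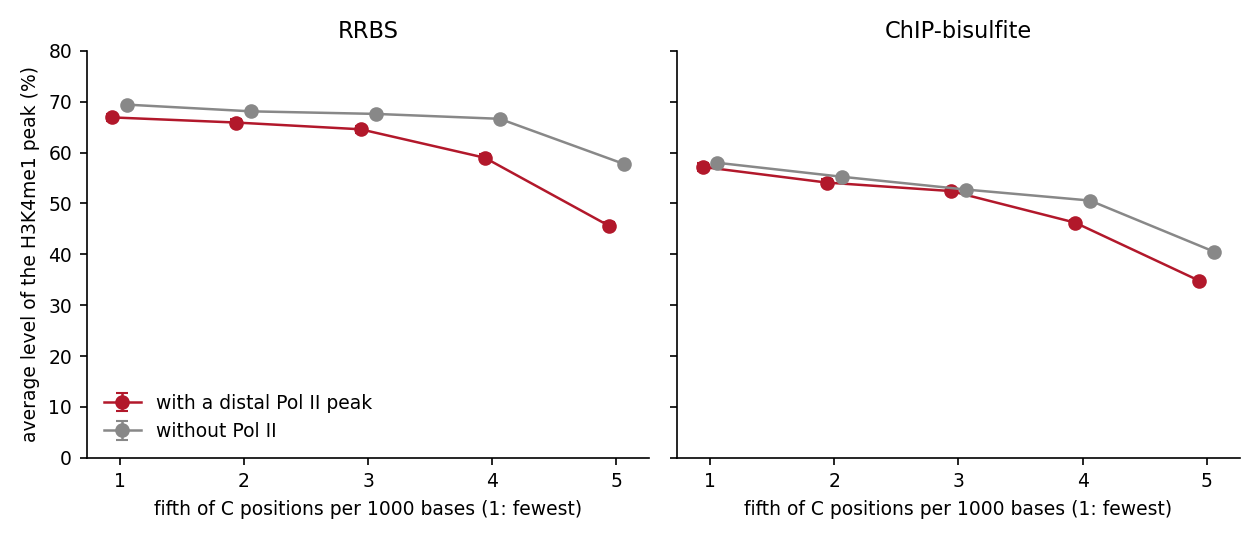
Average methylation level (percent) of distal H3K4me1 peaks with a distal Pol II peak and without Pol II, in 5 classes of equal size by the number of C positions per 1000 bases, in RRBS (left) and ChIP-bisulfite (right). Points are means over peaks and bars, mostly smaller than the points, are SE. The RRBS curves lie 2.51 points apart in the first class and 12.2 points apart in the last.

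Sites near distal Pol II peaks were looked up in the authors' list of sites that differ between the assays. Of the 2116 near sites, 160 (7.56%, exact 95% interval 6.47 to 8.77) were listed as lower in ChIP-bisulfite, where 10.2% of all 167387 shared sites were, and 65 (3.07%, 2.38 to 3.90) as higher, where 2.93% of all sites were. Since the list is set by both levels, near and far sites were compared within broad RRBS classes, with 1 site per host. Far sites came from every host with sites assigned to a distal Pol II peak, also hosts without near sites. The near and far sites were thus not paired by host, and levels were not matched within a class. Among sites at 70% or more in RRBS, 115 of 465 near sites (24.7%) and 595 of 2493 far sites (23.9%) were listed as lower, with an odds ratio of 1.05 that did not pass (adjusted p = 0.679, Fisher's exact test). Of the sites no higher than 30%, 46 of 472 near sites (9.75%) and 232 of 1518 far sites (15.3%) were listed as higher (odds ratio 0.599, adjusted p = 0.00255, exact test).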

How the data were processed

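Pol II PS5 and H3K4me1 peaks were used with the authors' score, per the deposited lists. CG site levels are whole percent, pooled over animals, per the file headers. RRBS depth came from the authors' counts per C position, which begin at 10 reads. The deposited averages per H3K4me1 peak give levels in percent, C position counts and reads, with RRBS reads as estimated counts that need not be whole. The submitters' processing notes name Bowtie2 2.2.3, Bismark 0.12.5, BSMAP 2.74, SAMtools 1.1, methylKit, MACS2 and HOMER 4.6. The build is not given in the sources used here, and no genome was used, so no sequence or exon position is printed. Starts are printed plus 1, as for bedGraph files. None of the 19244 gene IDs matched the RefSeq gene table, so the lists of genes and of cell type markers were not applied and the tissue label was not checked.

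Distances ran from a peak's edge to the start site. ChIP-bisulfite columns of that table of averages sat 1 or 2 lines away from their peak over 63.4% of its 198160 lines, and a displacement fitted against the site levels was undone first. Shares were compared with two-sided Fisher's exact tests and hosts with exact sign tests (SciPy, statsmodels), adjusted by Benjamini-Hochberg, and intervals are exact Clopper-Pearson intervals that cover counting error only. Interval overlaps, distances, the within-host sign test, the Fisher odds ratio and the line displacement were checked on simulated data. The other procedures were not. Regions were named by a rule: the highest scores, the lowest and highest levels and largest gaps among peaks with 3 or more sites, the hosts with most members and the peaks at the distance limit. The members, lists and tests were chosen with earlier results of these data known.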

Additional observations from a re-analysis of the deposited data

How the results depend on the processing

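Under 91 alternative settings of 16 results, 80 kept the direction and the side of the threshold, or a count within 1.5 times. No paired analysis was possible because the deposited files pool the 3 animals, and for the same reason no animal could be left out. The number of peaks was 16547 with high-scale H3K4me1 peaks only, 7489 when both start sites of the table of averages had to be distant as well (peaks in that table only) and 20422 on scaffolds with a listed start site. Sites inside the Pol II peak averaged 44.0% in RRBS and 37.3% in ChIP-bisulfite. The odds ratio for score against start-site peaks turned to 1.53 for scores of at most 2 decimals and to 1.25 for more decimals, and that for width to 1.13 in the latter. The odds ratio for listed lower sites was 0.968 with all sites, 0.972 within 100 bases and 1.21 within 500 bases, the last with p = 0.0405 (exact test). The causes were not tested. The within-host difference ran from -20.6 to -13.7 points in RRBS over its 13 alternatives, and the change in offset did not pass in any of them. In the deposited line order the ChIP-bisulfite odds ratio of hosts was 1.14. Depth limits single sites: at a median of 18 reads an RRBS level is coarse.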

Other observations

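At the highest-scoring distal Pol II peak with site levels, scaffold_90:5-263, the C positions of both strands of a CG disagreed. The site 11 bases before the midpoint had 91% in RRBS on 5801 reads, while its neighbour 10 bases before it had 2% on 890 reads. ChIP-bisulfite gave 61% and 57% at these sites. The other 3 sites had 92%, 90% and 92% in RRBS and 42%, 61% and 26% in ChIP-bisulfite.

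Levels were higher where the site table gives the transcript a Pol II score. Around 874 distal Pol II peaks whose nearest sites were listed with a scored transcript, RRBS averaged 53.4% ± 36.2, against 30.4% ± 33.9 around 197 peaks listed with transcripts without a score. This difference was not tested, and upstream and downstream positions were not separated in it.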
